A study of Arabidopsis thaliana with 6 samples.

Results

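GI, ELF4 and LNK3 are 3 genes tied to the plant circadian clock, and each was followed through 1 Affymetrix probe set in root tips of Arabidopsis seedlings given red light or kept in the dark. Joined to their gene names by a point, the 3 probe sets are GI.264211_at (AT1G22770), ELF4.267364_at (AT2G40080) and LNK3.256266_at (AT3G12320), of 22746 probe sets on the array that are not controls. They were chosen by their red light against dark values on these same 6 arrays, so their changes are a description and carry no test. The platform annotation names the GI probe set. It does not list the other 2, whose names are those under which they were chosen and were not checked against a table of probes here. RefSeq gives LNK3 as a synonym of AT3G12320, with the full name night light-inducible and clock-regulated 3.

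Both groups came from seedlings grown for 7 days in darkness at 23 °C on agar with 1% sucrose. The red light group (n = 3 arrays) then received 1 h of light with its peak at 630 nm, at 12 to 14 µmol per square metre and second, and the dark group (n = 3 arrays) spent the same 1 h in darkness. The light fell on whole seedlings, and roots were excised from material held in RNAlater, with 1 cm tips as the tissue measured. The labels call the 3 samples of a group biological replicates, and tissue of several plates was pooled for each. Accession, genotype and the hour of harvest, which sets the clock phase of an entrained plant, are not given in the sources used here.

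The circadian clock is a network of genes that repress and activate each other with a daily rhythm, and light resets its phase through photoreceptors such as the phytochromes, which absorb red light. GI (GIGANTEA) is a large nuclear and cytosolic protein that stabilises the F-box photoreceptor ZTL and, with FKF1, promotes flowering in long days. ELF4 (EARLY FLOWERING 4) is a small protein that joins ELF3 and LUX in the evening complex, a repressor of clock and growth genes, and it can move from shoots to roots. LNK proteins are co-activators that work with MYB-like REVEILLE factors in light-dependent clock gene expression. No gene, promoter or protein sequence of the 3 genes was used here.

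On every red light array each of the 3 probe sets was brighter than on every dark array. All values are MAS5 signals on a linear scale, 1 per probe set and array, after the authors had scaled each array to a common mean. A change is the mean log2 signal in red light minus that in the dark, with a standard error (SE) from limma, a linear model that pools the spread over probe sets. Of the 13647 probe sets bright enough to be tested, which include all 3, 2.23% lay above the dark arrays on every red light array. Because this contrast chose the 3 probe sets, nothing is read from their standing against that share. In whole root tips, a change in the number of cells with a transcript and a change in its level per cell cannot be told apart.

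GI had signals of 895.7, 1056.1 and 947.0 in dark replicates 1, 2 and 3. In red light replicates 1, 2 and 3 they were 1510.7, 2003.5 and 1688.0. The groups did not overlap, and the dimmest red light array was 1.43 times as bright as the brightest dark array. The mean signal was 966.3 ± 81.9 (SD, n = 3 arrays) without light and 1734 ± 249.6 (SD, n = 3 arrays) after it. The change was 0.84 (SE 0.25) on the log2 scale, or 1.79-fold. GI was already bright in darkness, at 5.67 to 5.99 times the median signal of its array, and stood at 9.72 to 11.9 times that median in red light.

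ELF4 had signals of 92.0, 126.9 and 138.2 in dark replicates 1, 2 and 3. Under red light the same replicate numbers gave 457.3, 693.9 and 567.1. The dimmest red light array was 3.31 times as bright as the brightest dark array. Means were 119.0 ± 24.1 (SD, n = 3) in the dark group and 572.8 ± 118.4 (SD, n = 3) after red light, with a change of 2.27 (SE 0.32) on the log2 scale, or 4.81-fold. In darkness ELF4 stayed below the median of its array, at 0.613 to 0.827 times that value. Its dark signals nevertheless all lay above the filter on low values, a signal of 88.4, so its place among the tested probe sets did not rest on the red light arrays alone.

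LNK3 had signals of 177.6, 162.2 and 220.9 in dark replicates 1, 2 and 3, near the array medians of 150 to 176.4. It reached 1396.6, 1188.2 and 738.7 in red light replicates 1, 2 and 3. Red light 3 was the dimmest of these, and still 3.34 times as bright as the brightest dark array. The dark mean was 186.9 ± 30.4 (SD, n = 3) and the red light mean 1108 ± 336.2 (SD, n = 3). The change was 2.53 (SE 0.33) on the log2 scale, or 5.78-fold.

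**Figure D1:**
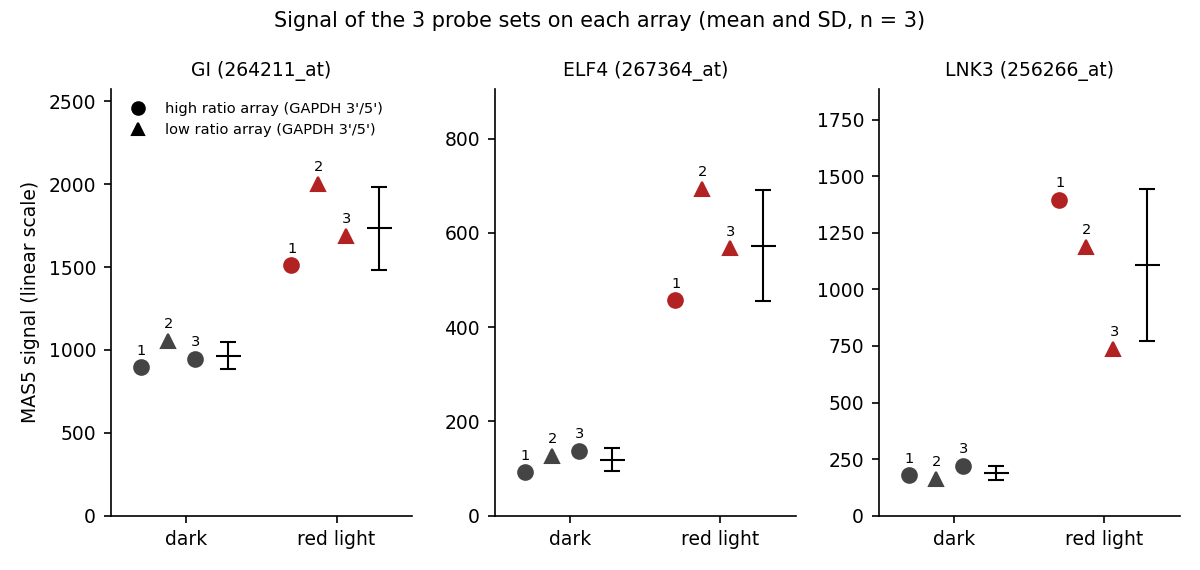
MAS5 signal (linear axis from 0) of GI, ELF4 and LNK3 on each array, dark in grey and red light in red, with replicate numbers above the points and the mean and SD of each group (n = 3) to their right. Circles are arrays with a high and triangles arrays with a low 3'/5' ratio of the GAPDH control. The red light points start at 1510.7 for GI, 457.3 for ELF4 and 738.7 for LNK3, above the highest dark points of 1056.1, 138.2 and 220.9.

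The sizes of the changes fell into a small one and a pair of larger ones. Dividing every red light array by every dark array gives 9 ratios for a probe set. For GI they ran from 1.43 to 2.24. The ratios of ELF4 ran from 3.31 to 7.54 and those of LNK3 from 3.34 to 8.61, so all of them lay above the highest of GI, while ELF4 and LNK3 covered nearly the same range. Probe sets differ in how steeply they respond to their transcript, and whether the genes differ in their response was not tested. Among all tested probe sets, 12 had a higher change than LNK3, 20 a higher one than ELF4 and 409 a higher one than GI. These ranks use the contrast that chose the 3, so they describe the size of the changes and nothing further is read from them.

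**Figure D2:**
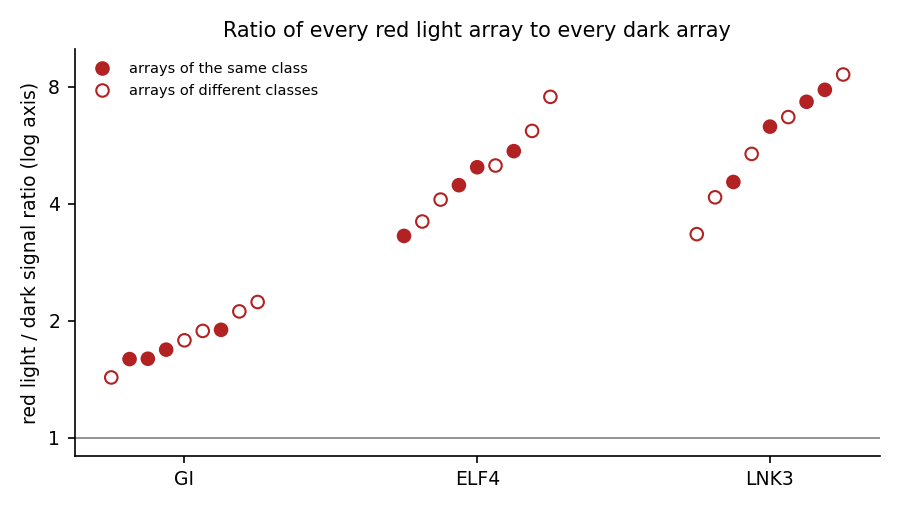
Ratio of red light to dark signal (log axis) for each of the 9 combinations of a red light and a dark array. Filled points combine arrays of the same class of GAPDH 3'/5' ratio and open points arrays of different classes. All points lie above 1, with GI at 1.43 to 2.24, ELF4 at 3.31 to 7.54 and LNK3 at 3.34 to 8.61.

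The arrays also differed in a way that crosses the treatment. For the GAPDH control transcript, the ratio of 3' to 5' signal, a measure of how far the labelled target reaches towards the 5' end, was 20.2 to 26.2 on dark 1, dark 3 and red light 1, and 0.981 to 1.45 on dark 2, red light 2 and red light 3. The actin and ubiquitin controls separated the same arrays. With group in the fit, limma called 5020 of the 13647 tested probe sets (36.8%) different between these classes at an adjusted p of 0.05. Array class was not itself used to choose GI, ELF4 and LNK3, and it was tested for them. It follows group in part, however, and a large class difference tends to make the groups overlap. The choice by red light against dark may thus have favoured probe sets with a small class difference, and these tests are not free of it. None of the 3 was called at an adjusted p of 0.05, and none had an unadjusted p under 0.05.

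GI differed between the classes by -0.24 (SE 0.19, 95% interval -0.66 to 0.18, limma adjusted p = 0.348), high-ratio minus low-ratio on the log2 scale. The difference was -0.31 for ELF4 (SE 0.28, 95% interval -0.94 to 0.31, limma adjusted p = 0.408). For LNK3 it was 0.43 (SE 0.26, 95% interval -0.14 to 1.00, limma adjusted p = 0.212). The intervals reach -0.66 for GI, -0.94 for ELF4 and 1.00 for LNK3, so they do not show that array class left the 3 probe sets untouched. With a replicate block beside class the differences were 0.0051 (SE 0.45) for GI, 0.35 (SE 0.58) for ELF4 and 1.18 (SE 0.50) for LNK3. Only replicate number 3 holds arrays of both classes. In that fit the class difference is thus the mean red light change of replicate numbers 1 and 2 less that of number 3. It is drawn from the contrast that chose the 3 probe sets, and nothing is read from it.

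The red light change was close to the pooled one inside each class, where 1 array stands against 2. GI changed by 0.71 among the high-ratio arrays (red light 1 against dark 1 and dark 3) and by 0.80 among the low-ratio arrays (red light 2 and 3 against dark 2). For ELF4 the values were 2.02 and 2.31, and for LNK3 2.82 and 2.53. ELF4 and GI thus had the higher value in the low-ratio class and LNK3 in the high-ratio class, and the difference between the classes was not tested. With array class added to the fit, the change was 0.76 (SE 0.19) for GI, 2.16 (SE 0.28) for ELF4 and 2.67 (SE 0.26) for LNK3. That is 1.69-fold, 4.48-fold and 6.38-fold.

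Across all probe sets, limma called 0 of 13647 (0%) for red light against dark with group alone, with 258 at an unadjusted p under 0.05. With array class in the fit it called 17 (0.125%), with 939 at an unadjusted p under 0.05. Since this contrast chose GI, ELF4 and LNK3, their own calls and p-values in either fit are not given.

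Within a group, GI and ELF4 ordered the arrays alike in red light and LNK3 did not. For GI and ELF4 red light 2 was the brightest and red light 1 the dimmest. For LNK3 red light 1 was the brightest and red light 3 the dimmest, at 0.53 below the mean log2 signal of its group. In the dark, replicate 1 was the dimmest array for GI and ELF4, and replicate 2 for LNK3. These orders rest on 3 arrays each, and some neighbours in them differ little. Dark 3 stood 1.09 times as high as dark 2 for ELF4, for instance.

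The spread inside the groups differed between the 3 probe sets. The brightest array of a group exceeded the dimmest by a factor of 1.18 for GI in the dark and of 1.33 for GI under red light. The factors were 1.5 and 1.52 for ELF4, and 1.36 and 1.89 for LNK3. The residual SD of the log2 values was 0.17 for GI, 0.31 for ELF4 and 0.37 for LNK3, against a median of 0.46 over all tested probe sets. GI had a smaller residual SD than 95.1% of tested probe sets, ELF4 than 75.7% and LNK3 than 63.6%. A clear contrast between the groups on these same arrays chose the 3. A small spread may come with that choice, and nothing is read from this standing. With array class in the fit the values were 0.11, 0.28 and 0.32, and the median over all was 0.29.

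**Figure D3:**
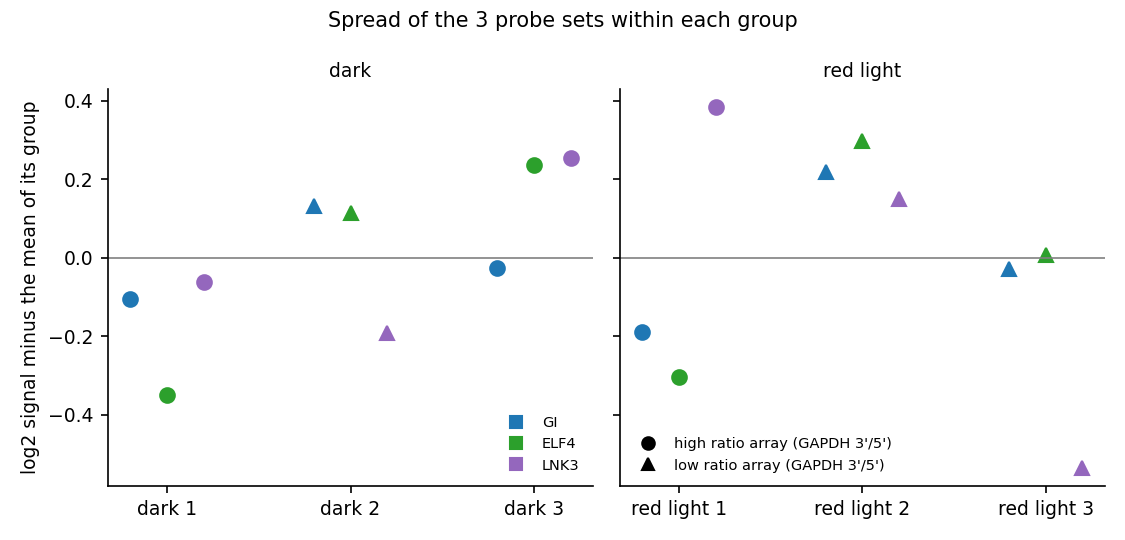
Log2 signal of GI, ELF4 and LNK3 on each array minus the mean of its group (n = 3 arrays), in the dark on the left and in red light on the right. Circles are high-ratio and triangles low-ratio arrays. LNK3 stands 0.38 above its group mean on red light 1 and 0.53 below it on red light 3, while GI and ELF4 stand 0.19 and 0.30 below theirs on red light 1.

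Other genes of the clock and of light signalling were taken from 6 lists. Of their 69 genes, 10 had a probe set with 1 annotated gene and 9 of these were tested. None of the 9 passed limma's test in either direction, with group alone or with array class, where the shares over all probe sets were 0% and 0.125%. None had an unadjusted p under 0.05 in either fit, against 1.89% and 6.88% of all tested probe sets. The median change of the 9 was 0.26 with group alone and -0.068 with array class, against -0.015 and -0.030 over all tested probe sets. No named probe set was found for the 8 genes of the morning MYB and pseudo-response regulator list, or for the 7 partners and relatives of ELF4 in the evening complex list. CCA1, LHY, TOC1, ELF3 and LUX are therefore not reported.

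The LNK and REVEILLE list held 4 tested genes of 13, and LNK1, LNK2 and LNK4 were not among them. RVE5 and RVE6 encode MYB-like relatives of RVE8, the REVEILLE factor that works with LNK proteins. RVE5 had signals of 184.8, 438.7 and 215.7 in dark replicates 1 to 3 and of 225.2, 637.4 and 456.1 in red light replicates 1 to 3. Its groups overlapped, with a change of 0.63 (SE 0.49) by group alone and 0.24 (SE 0.26) with array class. RVE6 changed by 0.26 (SE 0.60) and -0.22 (SE 0.31) in the same fits. Both differed between the array classes, by -1.20 (limma adjusted p = 0.00439) and -1.46 (limma adjusted p = 0.0043).

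COR27 and COR28 encode light- and cold-regulated repressors that act on clock genes. COR27 had a change of -0.54 (SE 0.66) by group alone and -0.068 (SE 0.43) with array class, and COR28 of 0.40 (SE 0.40) and 0.16 (SE 0.29). The signals of COR27 ran from 120.6 to 208 in the dark and from 50.1 to 310.3 in red light, so the groups overlapped. Its class difference of 1.43 passed limma's test (adjusted p = 0.0229), and that of COR28, -0.73, did not (adjusted p = 0.0682).

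Of the GI partners and flowering outputs, 1 of 11 genes was tested. This was CDF5, a DOF factor of the family that GI and FKF1 target for breakdown, with a change of -0.25 (SE 0.42). TIC (TIME FOR COFFEE), a nuclear regulator of clock amplitude, had a change of 0.90 (SE 0.79) by group alone, close in size to that of GI. Its dark signals were 324.6, 1501.3 and 320.6, and its red light signals 370.9, 1599.6 and 1702.0. They followed array class, by -2.19 (limma adjusted p = 6.5e-05), and with class in the fit the change was 0.17 (SE 0.20).

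XCT, a nuclear protein that affects clock period, changed by 0.33 (SE 0.32), and FIO1, an RNA methyltransferase that affects period, by -0.13 (SE 0.42). FHL, which helps to carry phytochrome A into the nucleus, was the 1 tested gene of 18 in the light signalling list, with a change of -0.31 (SE 0.42). HYH, a bZIP regulator related to HY5, fell under the filter on low values and was not tested. Over the 9 tested genes of the 6 lists, 4 differed between the array classes, beside none of GI, ELF4 and LNK3 and 36.8% of all tested probe sets. Whether these counts differ was not tested.

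The tested probe sets whose profile lay nearest to each of the 3 were found from the root mean square (RMS) difference of the log2 signals over the 6 arrays, each profile centred on its own mean. The measure takes in the red light contrast and array class alike, and it carries no test. Among 13646 other probe sets, LNK3 was the fourth nearest to ELF4 and ELF4 the third nearest to LNK3, with an RMS difference of 0.42. GI lay farther away, at 0.73 from ELF4 (rank 45) and 0.92 from LNK3 (rank 53), where its smaller change enters. Counted from GI, ELF4 had rank 9510 and LNK3 rank 11928. The contrast that chose the 3 is part of this measure, so their nearness to each other is a description and nothing further is read from it.

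For GI the 3 nearest named probe sets were those of AT5G40020, AT4G34880 and AT3G14410, with RMS differences of 0.11, 0.14 and 0.17. Their changes were 0.89 (SE 0.32), 0.63 (SE 0.28) and 0.81 (SE 0.31). AT5G40020 had signals of 115.9, 169.4 and 147.8 in dark replicates 1 to 3 and of 217.7, 313.8 and 268.1 in red light replicates 1 to 3, the same order of arrays as GI within both groups. A further 2 probe sets without a single annotated gene lay nearer to GI than these.

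AT2G16365 was the nearest of all probe sets to ELF4, with an RMS difference of 0.34. Its dark signals were 49.1, 99.7 and 145.2, and its red light signals 339.7, 372.6 and 392.0, a change of 2.04 (SE 0.44). Like ELF4 it was lowest on dark 1 and highest on dark 3 among the dark arrays. AT1G13670 came next at 0.35, with a change of 2.50 (SE 0.40), and was the nearest named probe set to LNK3 as well, at 0.45. The geometric mean of its dark signals, 65.6, lay below the filter of 88.4, so it was tested only through its red light arrays, and its dark level was not shown to be above background.

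Chloroplast transcripts made up part of the remaining neighbours. The third named neighbour of ELF4 was rpl32, which encodes a protein of the chloroplast ribosome, at an RMS difference of 0.49. For LNK3 the next were psaB, for a reaction centre protein of photosystem I, at 0.56, and AT2G16365 at 0.57. On psaB red light 2 was the brightest array, with a signal of 968, and red light 1 the dimmest of the red light arrays, with 446.3. Its dark signals had a geometric mean of 87.7, also just below the filter. The order is unlike that of LNK3, whose highest signal was on red light 1.

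**Figure D4:**
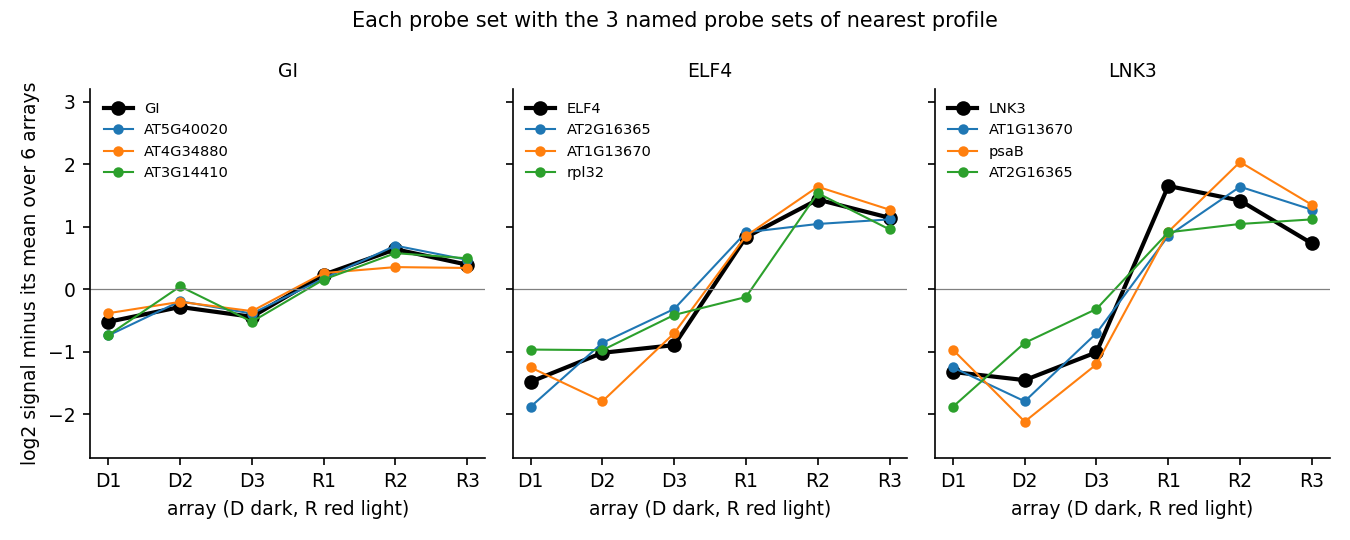
Log2 signal on each array minus its mean over the 6 arrays, for GI, ELF4 and LNK3 (black) and the 3 named probe sets with the smallest RMS difference from each (coloured), in the order dark 1 to 3 (D1 to D3) and red light 1 to 3 (R1 to R3). Lines only join the points of a probe set. The named neighbours of GI run closest, at RMS differences of 0.11 to 0.17, and those of LNK3 farthest, at 0.45 to 0.57. The median RMS difference to all compared probe sets was also lowest for GI, at 0.61, against 1.24 for ELF4 and 1.39 for LNK3. With unnamed probe sets included, the nearest lay at 0.063 from GI, 0.34 from ELF4 and 0.25 from LNK3.

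Markers of tissue were measured through few named probe sets. Of 12 root genes, 3 were tested, all of root hairs. EXPA7, EXPA18 and XTH26 all passed the filter on low values, but EXPA7 stood at 16.6 on red light 1, where LNK3 was highest, and at 139.6 and 164.5 on the dark arrays of that class. These 3 differed between the array classes by -3.61, -2.47 and -1.14, and each passed limma's test for class. With class in the fit all 3 lay lower in red light, with EXPA7 at -1.54 (SE 0.67), EXPA18 at -0.999 (SE 0.35) and XTH26 at -0.81 (SE 0.24). For EXPA7 this rested on red light 1. For EXPA18 it rested largely on the same array, with 155.7 there against 478.8 and 647.4 on dark 1 and dark 3. XTH26 had 302 on red light 1 against 789.9 and 565.4 on those dark arrays. Among the low-ratio arrays EXPA7 had 588.1 on dark 2 and 600.4 and 668.2 on red light 2 and 3. On the same low-ratio arrays EXPA18 had 1720.5 against 1704.3 and 1390.5, and XTH26 had 1163.2 against 867.6 and 812.4. Of 12 shoot or leaf genes, 4 were tested. The Rubisco activase gene RCA had signals of 67.4 to 259.5 and the antenna gene LHCB4.1 of 374.8 to 641.1, PSAE1 and PSBW of 55.5 to 467.7 and 82.0 to 814.3. RCA and PSBW had their highest signals on red light 1, where PSAE1 stood at 324.1 and LHCB4.1 at 494.2. PSBW differed between the classes the other way from the root hair genes, by 2.24 (limma adjusted p = 0.00172), and the other 3 shoot or leaf genes did not pass that test. None of the 7 genes passed limma's test for red light against dark in either fit, and 2 root hair genes, EXPA18 and XTH26, reached an unadjusted p under 0.05 with array class, as did 6.88% of all tested probe sets. The part of these genes' tissues in the values of GI, ELF4 and LNK3 was not tested.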

How the data were processed

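The deposited intensity of each probe set on each array is a linear MAS5 signal that the authors computed, per the submitters' processing notes. Its version, any detection calls and the build of the array's annotation are not given in the sources used here. On each array the deposited intensity had a mean of 500.04 to 500.06 after trimming 2% from each end. From 22810 probe sets, 64 controls were set aside. Log2 values carried no pseudocount, and probe sets with a mean above the 40th percentile were tested. The fits used lmFit and eBayes (trend, robust) of limma 3.58.1 under R 4.3.3, and statmod 1.5.0, with group alone (4 residual degrees of freedom) or group and array class (3), and Benjamini-Hochberg adjustment over 13647 probe sets, 2-sided. Array class was split at a GAPDH 3'/5' ratio of 5. The scripts were tested on simulated data. The number of arrays and the difference between array classes limit the precision.

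Gene names came from the platform annotation (1 gene for 13513 probe sets, several for 503, 8730 not listed) and a RefSeq table (TAIR10.1) used for names only. From each list every tested gene with its own named probe set was reported, up to 4 by mean level, and for each of GI, ELF4 and LNK3 the 3 nearest named profiles. CCA1, LHY, TOC1, ELF3, LUX, LNK1, LNK2, LNK4 are named only to say that no probe set was annotated to them here, and HYH that it was not tested. The 3 members, the lists and array class were chosen with earlier results of these data known. Replicate numbers were not taken as pairs. Their deviations from the group means correlated at 0.58, 0.64 and -0.32 for numbers 1, 2 and 3. Numbers 1 and 2 each hold arrays of 1 class, and number 3 holds arrays of both. Pairing and array class therefore cannot be told apart by these values.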

Additional observations from a re-analysis of the deposited data

How the results depend on the processing

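The red light changes of GI, ELF4 and LNK3 kept their direction and moved by less than 1 residual SD in all 13 alternatives (scaling, pseudocount, replicate block, array class, each class alone and each array left out), with ranges of 0.71 to 0.93, 2.02 to 2.42 and 2.34 to 2.82. Leaving out 1 array gave 0.73 to 0.93, 2.09 to 2.42 and 2.34 to 2.80. With a replicate block the changes were 0.84, 2.27 and 2.53, as without it. This was fixed in advance, because each replicate number holds a single dark and a single red light array, and it says nothing about stability. The groups of each probe set did not overlap. The direction was therefore also fixed with a pseudocount, array class, each class alone and each array left out. A kept direction in these alternatives says nothing about stability either. Array class was not called for any of the 3 in any alternative (limma adjusted p of 0.0942 to 0.997). With a replicate block, which leaves 1 residual degree of freedom, the class differences of GI, ELF4 and LNK3 were 0.0051, 0.35 and 1.18. In that fit they compare the red light changes of the replicate numbers, so nothing is read from them. Leaving out 1 array gave class differences of -0.29 to -0.18, -0.46 to -0.17 and 0.26 to 0.58. ELF4 was not tested with the filter at the 60th percentile. The count of probe sets called with group alone stayed at 0 with a replicate block and in the other alternatives, except without red light 1 (10), so leaving out 1 array gave 0 to 10. With array class it was 17 with a replicate block, 5 with plain eBayes and 38 at a threshold of 0.1. With single arrays left out it ran from 8 to 272. It was 8 when red light 2 was dropped, 9 for red light 3, 28 for dark 3, 71 for red light 1 and 272 for dark 2. The cause was not tested. The dark signals of ELF4, 92.0 to 138.2, lie near the filter on low values (88.4), and no detection calls were used here to tell signal from background.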
